A study of Mus musculus with 36 samples.

Results

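Tbx4, Tbx5, Tbx15, Tbx18, Pitx1, En1, Alx4, Prrx1 and Twist1 encode transcription factors that give embryonic mesenchyme its place in the body, and they were followed here as 9 genes among 39242 genes with at least 1 read in the series. They were chosen by name as limb and positional factors outside the Hox clusters, with their levels and their genotype differences in fibroblasts and tumours already known. Their genotype differences in bulk tumours, sorted fibroblasts and cultured fibroblasts are therefore given as descriptions that support nothing, with fold changes and errors from the fit over all genes, no p, and 1 count of how many met its threshold beside the share of all genes. Their responses to serum and their values in CD8+ T cells were not part of that choice and were tested.

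The family is known from limb and skin development. T-box factors bind DNA through the T domain: Tbx5 marks and initiates the forelimb field, Tbx4 marks the hindlimb field, and Tbx15 and Tbx18 pattern the dermis, skeleton and other mesenchyme of the trunk and limbs. Homeodomain factors of the set act beside them. Pitx1 lies upstream of Tbx4 in the hindlimb, En1 marks ventral limb ectoderm and a fibroblast lineage of dorsal trunk skin, Alx4 acts in anterior limb mesenchyme and craniofacial tissue, and Prrx1 is a broad marker of limb and dermal mesenchyme. Twist1 is a basic helix-loop-helix factor of mesenchyme and neural crest. Fibroblasts keep part of such a positional code in the adult, so that cells from different skin sites differ in these genes.

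RNA was sequenced from 36 libraries. Tumours were autochthonous melanomas at day 50 after topical 4-hydroxytamoxifen on the back of mice whose alleles included Tyr-CreERT2 and Braf CA/CA, in which Cre acts in melanocytes. The mice were WT or lacked both macroH2A histone variants throughout the body (dKO, deletion of H2afy and H2afy2). Bulk tumours numbered 6 WT (4 female, 2 male) and 6 dKO (1 female, 5 male) over 3 batches, and cancer-associated fibroblasts (CAFs), sorted on the surface receptor PDGFRα, and CD8+ T cells numbered 4 of each genotype, with 2 females and 2 males in each. The mice were 10 weeks old at induction for CAFs and 9 weeks old for T cells, on a mixed background. Immortalized dermal fibroblasts (iDFs) came from male WT and dKO skin without tumours and were sampled as 2 experimental replicates per group after serum starvation (0 min) and 30 min after serum was returned. The sources do not state how many iDF lines there were or which skin they came from, so that genotype cannot be told apart from the line or the skin site in the iDF comparisons. Their p-values measure the spread between cultures of what may be 1 line per genotype.

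Libraries held between 17526618 and 85432397 reads in genes, with a median of 26158133. H2afy was lower in dKO than in WT bulk tumours (mean 75 against 101 CPM) and iDFs (63.1 against 93.1 CPM at 0 min), and H2afy2 was lower in dKO CAFs (12.2 against 21.4 CPM), but reads of both genes remained in every dKO bulk, CAF and iDF library. Which part of each gene was removed is not stated, and these residual reads therefore do not check the genotypes. Summed TPM of 10 fibroblast markers ran from 47914 to 72449 in CAFs and from 11640 to 14757 in iDFs, against 4711.7 to 16529 in bulk tumours and 515 to 1428 in CD8+ T cells. Of 6 keratinocyte markers, keratin 5, keratin 14 and keratin 1 were at 0 in every iDF library. The 6 together summed to 5.84 to 9.59 TPM in iDFs. Values below are CPM (library-size scaled read counts, with trimmed-mean factors) for comparisons of 1 gene between groups, and TPM, which correct for transcript length, for comparisons between genes. A gene was called when its adjusted p (edgeR's quasi-likelihood test, Benjamini-Hochberg) was under 0.05 and its log2 fold change was beyond 0.75 in either direction.

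The 9 genes fell into a high, a middle and a low set by their TPM, and the ranking was much alike in sorted and cultured fibroblasts. In WT CAFs the mean TPM was 226 ± 23.8 for Prrx1, 137 ± 9.77 for Twist1 and 73.3 ± 12.4 for Tbx15 (SD, n = 4). Tbx18 at 13.1 ± 2.35, En1 at 13 ± 3.77 and Alx4 at 12.2 ± 3.62 followed. Tbx4 at 0.368 ± 0.118, Tbx5 at 0.183 ± 0.0623 and Pitx1 at 0.135 ± 0.137 were under 1 TPM. In WT iDFs at 0 min the mean TPM was 242 ± 14.3 for Prrx1, 121 ± 0.786 for Twist1 and 103 ± 7.12 for Tbx15 (SD, n = 2), and En1 at 27.0 ± 1.54 stood above Tbx18 at 14.2 ± 0.507. Alx4, a middle gene in CAFs, was a low gene in these cells at 0.440 ± 0.0220 TPM. In bulk WT tumours the order was led by Prrx1 (47.6 ± 8.29), Tbx15 (16.6 ± 2.29) and Twist1 (13.8 ± 1.72) (SD, n = 6), and Pitx1 at 0.975 ± 0.436 TPM was on a par with En1 at 1.08 ± 0.311. The bulk, CAF and iDF libraries were prepared separately, and levels between these experiments were not tested.

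**Figure D1:**
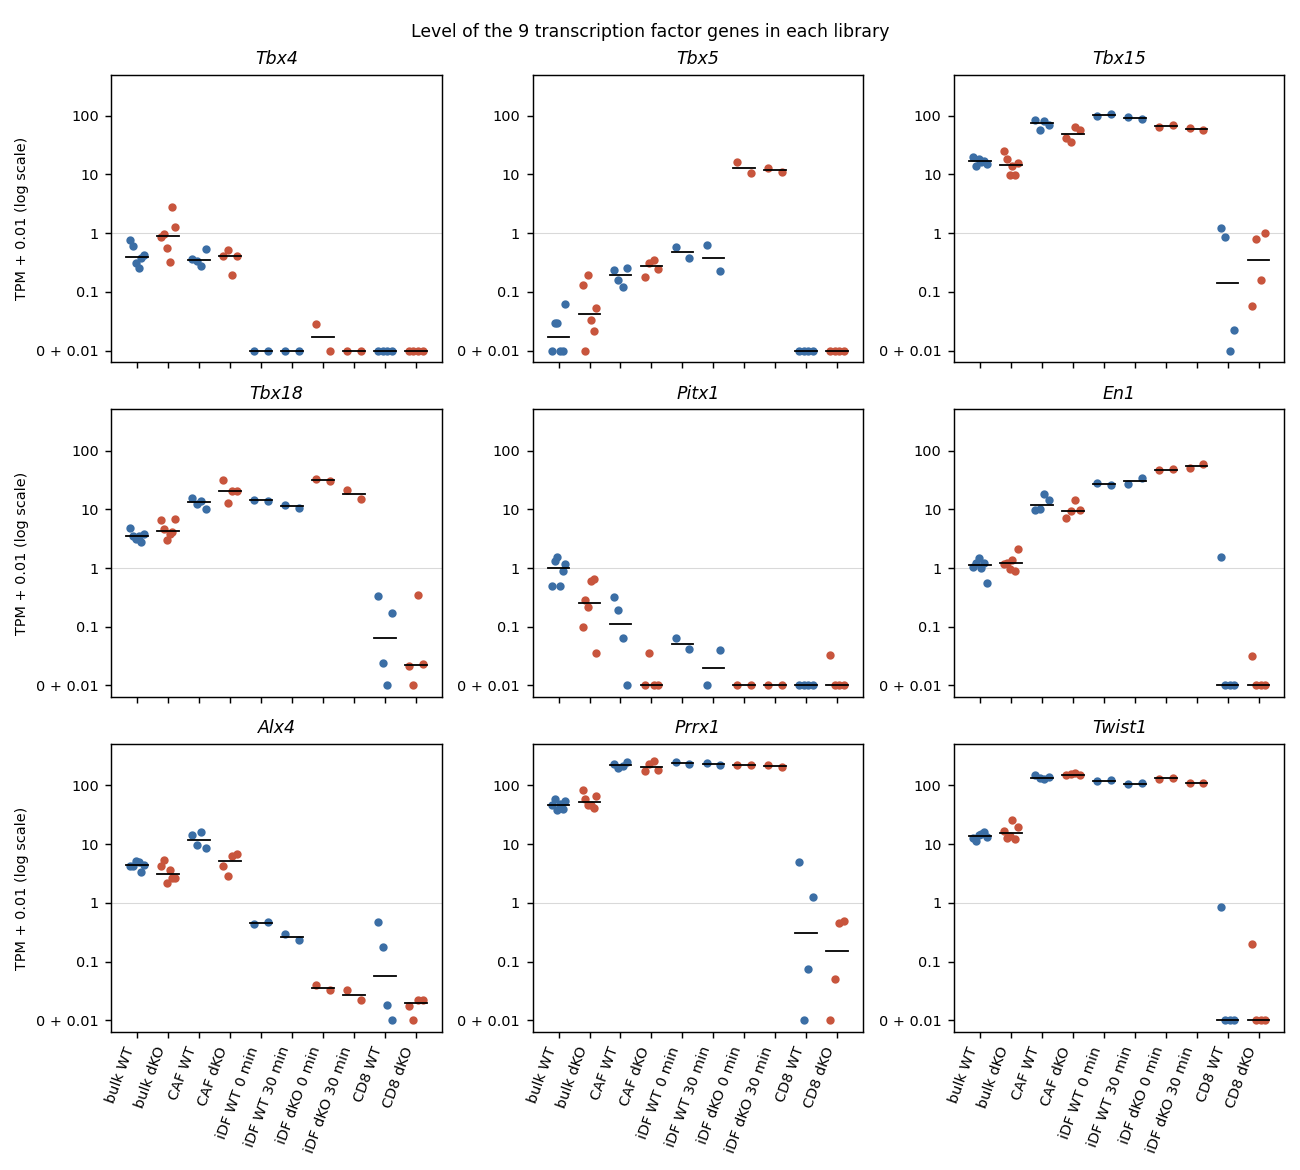
Level of each gene in each of the 36 libraries, as TPM plus 0.01 on a log axis, by group (blue, WT; red, dKO; points, libraries; line, group median). Prrx1 and Twist1 stand near 100 TPM or above in all CAF and iDF groups, Tbx5 stands above 10 TPM only in the dKO iDF groups, and Alx4 is above 2 TPM in CAFs and bulk tumours and under 0.5 TPM in iDFs.

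Across groups, 5 of the 9 genes (Tbx15, Tbx18, En1, Prrx1 and Twist1) had a higher mean TPM in every CAF and iDF group than in either bulk group, and Tbx4 and Pitx1 were highest in bulk tumours. Prrx1 ranged from 213 to 242 mean TPM over the CAF and iDF groups, where neighbouring groups in the order mostly overlapped, and was at 47.6 to 57.2 mean TPM in bulk tumours. Twist1 ranged from 107 to 155 mean TPM over the CAF and iDF groups and from 13.8 to 16.9 in bulk. Tbx4 was highest in bulk tumours (1.12 ± 0.887 TPM in dKO, 0.440 ± 0.189 in WT; SD, n = 6), lower in CAFs (0.374 ± 0.137 in dKO; SD, n = 4), with overlap between each of these groups, and at 0 or 1 read in each iDF library. Pitx1 held at most 5 reads in any CAF library and 2 in any iDF library. In bulk samples, fewer cells of a type and less RNA per cell cannot be told apart.

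Of the 9 members, 8 passed the filter on low counts in bulk tumours, 8 in CAFs, 7 in iDFs and 2 in CD8+ T cells. In bulk tumours 0 of the 8 were called, where 0.0442% of all tested genes were. In CAFs 1 of the 8 was called, where 5.48% of all genes were. In iDFs 4 of the 7 were called at 0 min and 4 at 30 min, where 9.13% and 9.05% of all genes were. Because the members were selected on these contrasts, these counts are no test of the members and nothing is read from them. The median log2 fold change over the members that passed was 0.03 in bulk tumours, 0.00 in CAFs, 0.18 in iDFs at 0 min and 0.14 at 30 min, and over all tested genes it lay between -0.01 and 0.02.

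**Figure D2:**
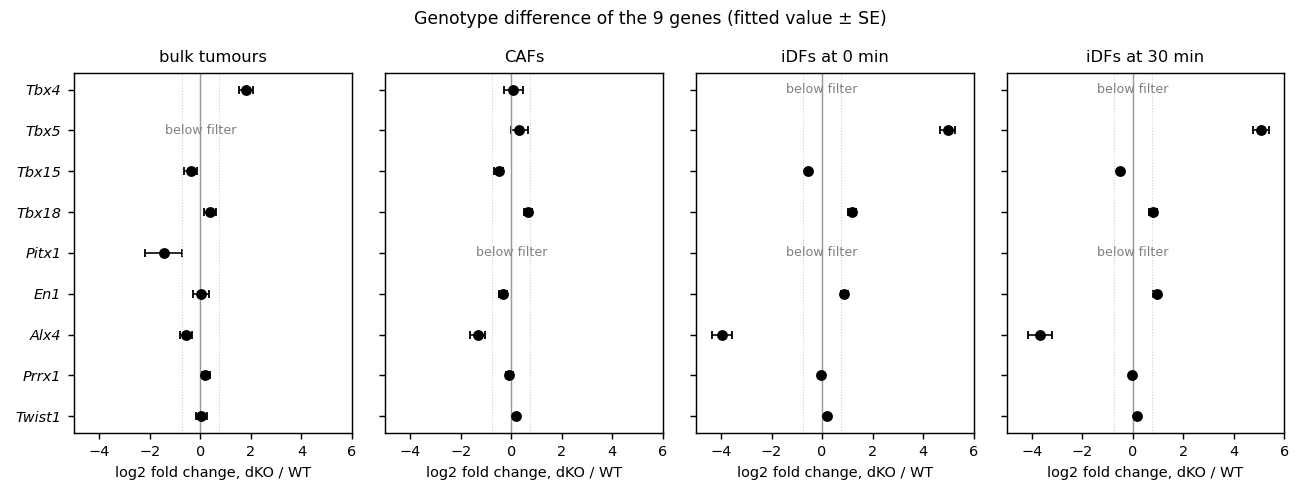
Fitted log2 fold change of dKO over WT with its standard error for each gene in 4 comparisons (dotted lines, log2 fold changes of -0.75 and 0.75; genes marked below filter had too few reads to be fitted). Tbx5 reaches 4.97 and 5.06 in iDFs and Alx4 stands at -3.97 and -3.68, while Prrx1 and Twist1 lie close to 0 in all 4 panels.

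Tbx5, the forelimb factor, showed the widest genotype difference of the set, and the dKO iDFs were the only libraries with more than 1 CPM. Its gene lies at chr5:119832668-119885219 on the plus strand (GRCm38.p6). WT iDFs held 0.672 and 0.845 CPM at 0 min and 0.898 and 0.516 CPM at 30 min. The dKO libraries held 26.5 and 21 CPM at 0 min and 28.2 and 19.3 CPM at 30 min. Every dKO library was therefore far above every WT library, on 457 to 832 reads against 12 to 21. The log2 fold change was 4.97 ± 0.31 at 0 min and 5.06 ± 0.32 at 30 min (SE). In CAFs Tbx5 was low in both genotypes, at 0.408 ± 0.132 CPM in WT and 0.509 ± 0.128 CPM in dKO (SD, n = 4), and the ranges overlapped. In bulk tumours no library held more than 11 reads. The dKO iDF signal was assigned mainly to the protein-coding transcript Tbx5-201, with a mean share of 70.4% ± 10.2 at 0 min and 72.9% ± 15.2 at 30 min (SD, n = 2), and to 2 further protein-coding transcripts. Tbx3, a T-box gene 147.9 kb from Tbx5 and a factor of the posterior limb and mammary placode, was not called in iDFs (21.2 against 22.5 CPM in WT and dKO at 0 min; log2 fold change 0.08 ± 0.09, adjusted p = 0.524 by edgeR). Rbm19, 231.2 kb away on the other side, was at 41.6 and 41.5 CPM and was not called either.

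Alx4, the anterior limb and craniofacial homeodomain factor, stood lower in dKO fibroblasts of both kinds. It lies at chr2:93642384-93681339 on the plus strand. In CAFs the WT libraries held 44.6, 29.3, 50.0 and 25 CPM and the dKO libraries 13.2, 8.99, 19.0 and 20.5 CPM. All 4 dKO libraries lay below all 4 WT libraries, as 14% of tested genes did in either direction. The log2 fold change was -1.33 ± 0.29 (SE), and the log2 ratio of the group means was -0.93 within females and -1.74 within males. It lay between -1.58 and -1.12 with 1 of the 8 libraries left out. Markers of other cells were lower in the same dKO libraries. The summed level of 6 keratinocyte markers was 14.7 to 43.4 TPM in dKO against 46.4 to 83.2 TPM in WT (4 of 6 called lower), that of 7 melanocyte markers 85.3 to 319 against 347 to 495 TPM (1 of 7), and that of 8 neural crest and Schwann cell markers 153 to 273 against 254 to 447 TPM (2 of 8). The part of these cells in the level of Alx4 was not tested.

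In iDFs Alx4 was barely read, and the genotype difference was wider. WT libraries held 1.34 and 1.44 CPM at 0 min and 0.941 and 0.730 CPM at 30 min. The dKO libraries held 0.0955 and 0.0719 CPM at 0 min and 0.0783 and 0.0423 CPM at 30 min. These are 36, 34, 22 and 17 reads in WT and 3, 2, 2 and 1 in dKO. The summed reads were 70 in WT and 5 in dKO at 0 min, and 39 and 3 at 30 min. Scaled for library depth, the WT to dKO ratio was 17.0 at 0 min (exact 95% interval 6.96 to 54.1) and 14.6 at 30 min (4.64 to 73.8). These intervals cover counting error only and are no test of genotype. In bulk tumours Alx4 ran from 14.8 to 24.8 CPM in WT (median 18.9) and from 9.19 to 23.2 CPM in dKO (median 14.3), with overlap and a log2 fold change of -0.57 ± 0.23 (SE). The log2 ratio was -0.53, -0.31 and -0.31 within the 3 batches. Alx4 overlaps Ext2, an exostosin of heparan sulfate synthesis that lies on the opposite strand. The tumour, CAF and iDF libraries were prepared with directional kits. Whether the mapping assigned reads by strand is not stated, and so reads of the overlap may be shared. Ext2 was higher in dKO CAFs by 0.34 ± 0.06 on the log2 scale (adjusted p = 0.0111 by edgeR, under the fold threshold) and was not called in iDFs (log2 fold change -0.09 ± 0.04 at 0 min, adjusted p = 0.113 by edgeR).

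**Figure D3:**
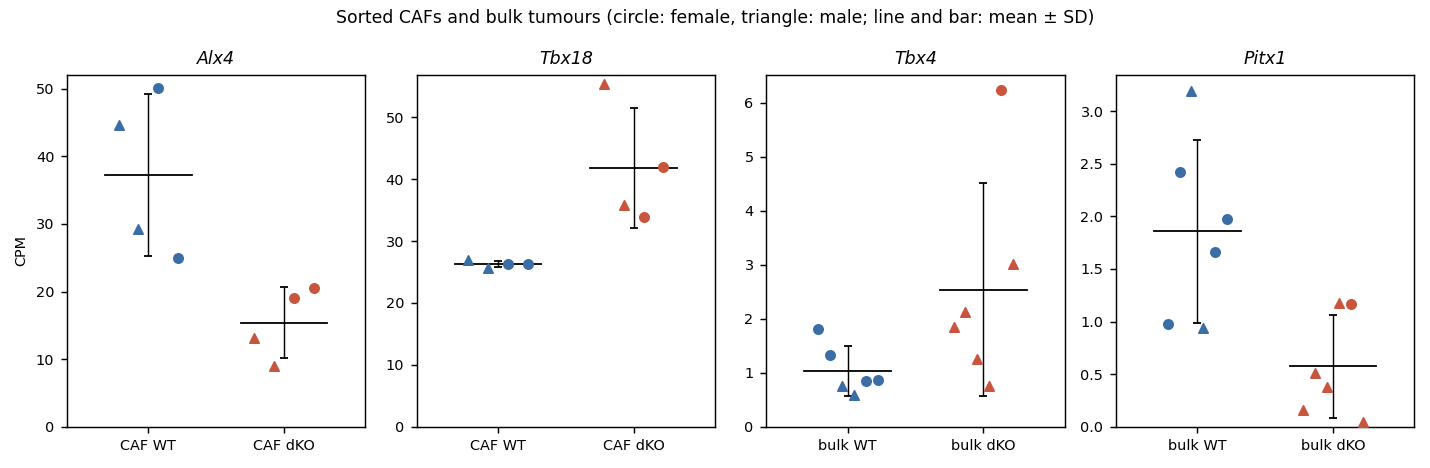
CPM by library in CAFs (Alx4, Tbx18) and bulk tumours (Tbx4, Pitx1), with circles for females, triangles for males, and the mean with its SD (n = 4 per CAF group, 6 per bulk group). The WT and dKO ranges are apart for both genes in CAFs, and overlap for both genes in bulk tumours, where 1 dKO library reaches 6.23 CPM of Tbx4.

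Tbx18, a factor of dermal and perivascular mesenchyme at chr9:87702800-87731260 on the minus strand, stood higher in dKO fibroblasts of both kinds. WT CAFs held 27.0, 25.7, 26.2 and 26.3 CPM, a narrow range, and dKO CAFs held 55.4, 35.8, 33.9 and 42.0 CPM. The lowest dKO library was above the highest WT library. The log2 fold change of 0.66 ± 0.14 (SE) lay between 0.50 and 0.75 with 1 library left out, and the log2 ratio of the means was 0.53 within females and 0.79 within males. In iDFs at 0 min WT libraries held 40.0 and 37.8 CPM and dKO libraries 92.2 and 86.0 CPM, a log2 fold change of 1.2 ± 0.15 (SE). At 30 min the values were 33.9 and 30.7 CPM in WT and 65.8 and 47.2 CPM in dKO, a log2 fold change of 0.81 ± 0.16 (SE). With 1 of the libraries left out it ranged between 0.55 and 1.03. In bulk tumours Tbx18 ran from 10.7 to 18.9 CPM in WT (median 13) and from 11.1 to 26.5 CPM in dKO (median 16.3), with overlap. The dKO library with 26.5 CPM was also the 1 with the highest fibroblast marker sum, at 16529 TPM against 4711.7 to 9215 in the other 11 tumours, and the part of fibroblast content in the bulk values was not tested. Cep162, 447.3 kb from Tbx18, was called higher in dKO CAFs (12.0 against 23.3 CPM; log2 fold change 0.96 ± 0.15, adjusted p = 0.00791 by edgeR) and was not called in iDFs.

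En1, a marker of a dorsal dermal fibroblast lineage at chr1:120602418-120607992 on the plus strand, stood higher in dKO iDFs and did not do so in CAFs. At 0 min WT iDFs held 41.5 and 38.0 CPM and dKO iDFs 71.9 and 73.8 CPM, a log2 fold change of 0.87 ± 0.14 (SE). At 30 min they held 41.1 and 53.1 CPM and 81.5 and 99.6 CPM, a log2 fold change of 0.94 ± 0.14 (SE). In CAFs WT libraries held 14.5, 14.6, 26.3 and 19.6 CPM and dKO libraries 10.5, 13.7, 21.1 and 13.9 CPM, overlapping ranges with a log2 fold change of -0.33 ± 0.16 (SE). The 2 female libraries were the higher ones in each genotype. In bulk tumours En1 was low, at 2.26 ± 0.748 CPM in WT and 2.58 ± 0.95 CPM in dKO (SD, n = 6).

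Tbx15, a factor of dorsal dermis and skeletal mesenchyme at chr3:99240381-99354259 on the plus strand, stood lower in dKO fibroblasts by less than the fold threshold. WT iDFs held 201 and 218 CPM at 0 min against 138 and 145 CPM in dKO, a log2 fold change of -0.57 ± 0.06 (SE), and the difference at 30 min was -0.52 ± 0.06. In CAFs WT libraries held 157, 91.3, 167 and 132 CPM and dKO libraries 85.1, 73.2, 124 and 110 CPM, with overlap and a log2 fold change of -0.50 ± 0.18 (SE). In bulk tumours the ranges of 37.9 to 60.1 CPM in WT and 26.2 to 66.7 CPM in dKO overlapped. Wars2, a mitochondrial tRNA synthetase gene 1.2 kb away, was not called in any of these comparisons.

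Prrx1 and Twist1, the broad mesenchymal genes, had close levels in the 2 genotypes. Prrx1 lies at chr1:163245119-163313710 on the minus strand. It held 541 and 506 CPM in WT and 523 and 501 CPM in dKO iDFs at 0 min, with a log2 fold change of -0.03 ± 0.05 (SE). WT CAFs held 448 ± 50.8 CPM and dKO CAFs 424 ± 76.4 CPM (SD, n = 4), with overlap. Much of the Prrx1 signal in CAFs was assigned to Prrx1-205, annotated as a processed transcript without a coding sequence (42.4% ± 3.14 in WT, 43.6% ± 1.42 in dKO; SD, n = 4), and most of the rest to the coding transcript Prrx1-201 (50.6% ± 2.89 in WT). Prrx1 overlaps 3 genes that are not protein-coding, so that its total may include their reads. Twist1 lies at chr12:33957671-33959829 on the plus strand. It held 103 and 103 CPM in WT and 116 and 119 CPM in dKO iDFs at 0 min, a small shift of 0.18 ± 0.04 on the log2 scale (SE). In CAFs it held 114 ± 8.10 CPM in WT and 132 ± 7.17 CPM in dKO (SD, n = 4), with overlap. In bulk tumours the log2 fold change was 0.20 ± 0.19 for Prrx1 and 0.04 ± 0.22 for Twist1 (SE).

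Counted over the 9 genes by range, 4 were higher and 3 lower without overlap in dKO iDFs at 0 min (the third being Pitx1, on at most 2 reads), and 4 were higher and 2 lower at 30 min. Groups of 2 separate easily, and 70.1% of all tested genes did so at 0 min and 66% at 30 min. In CAFs 1 gene was higher and 1 lower without overlap, against 14% of tested genes. In bulk tumours 0 of the 9 were, against 0.669% of tested genes.

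Tbx4 and Pitx1, the hindlimb pair, differed in bulk tumours in opposite directions with wide spread. Tbx4 lies at chr11:85886422-85916097 on the plus strand. WT tumours held 0.580 to 1.82 CPM (median 0.859) and dKO tumours 0.761 to 6.23 CPM (median 1.99), with overlap. The log2 fold change was 1.82 ± 0.28 (SE) in the fit with batch and sex and 1.11 without the sex term. Within batches the log2 ratio of the means was 1.75, 1.31 and 0.22, and within sexes 2.36 in females, where dKO had 1 tumour, and 1.44 in males. That 1 female dKO tumour was the library with 6.23 CPM. Sex and genotype were unevenly crossed in these tumours. In CAFs Tbx4 stood at 0.600 ± 0.173 CPM in WT and 0.651 ± 0.248 CPM in dKO (SD, n = 4), on 8 to 26 reads.

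Pitx1 lies at chr13:55825051-55836192 on the minus strand. A noncoding gene overlaps it on the same strand, so that its total may include reads of that gene. WT tumours held 0.936 to 3.19 CPM (median 1.82) and dKO tumours 0.0499 to 1.18 CPM (median 0.445), with overlap. The log2 fold change was -1.46 ± 0.75 (SE), and with 1 library left out it ranged from -2.75 (without dKO replicate 5) to -0.86 (without WT replicate 3). The log2 ratio of the means was -0.53, -3.32 and -1.22 within the 3 batches. Summed TPM of 6 keratinocyte markers was 4286.3 to 9209.7 in WT and 2839.9 to 7223.4 in dKO tumours, and its part in the Pitx1 values was not tested. WT CAFs held 4, 5, 2 and 0 reads of Pitx1 and dKO CAFs 0, 1, 0 and 0. WT iDFs held 2, 1, 0 and 1 reads, and dKO iDFs held 0 in all 4 libraries, where 3 reads would be 0.0969 to 0.118 CPM. These values are too low for a difference to be detectable at this depth. The nearest protein-coding gene to Pitx1 was Catsper3, 16.1 kb away, and the next on its other side was the targeted H2afy, at a distance of 237.4 kb. An effect of the targeted allele or of the sequence linked to it on Pitx1 cannot be told apart from loss of macroH2A.

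RefSeq promoter sequences of 300 bases (250 before and 50 after the start, GRCm38.p6) matched 5 of the 9 genes by symbol, namely En1, Prrx1, Tbx18, Tbx4 and Twist1. Those of En1 and Tbx18, the matched members that stood higher in dKO iDFs, and of Twist1, which differed little, are shown for comparison. Capitals mark matches on either strand to the 6 motifs searched, which are the homeodomain core TAATTA, the T-box half-site AGGTGT, the E-boxes CATCTG and CACGTG, the TATA box TATAAA and the CCAAT box CCAAT. Matches of different motifs did not overlap in these windows.
En1 (chr1:120602237-120602536, plus strand): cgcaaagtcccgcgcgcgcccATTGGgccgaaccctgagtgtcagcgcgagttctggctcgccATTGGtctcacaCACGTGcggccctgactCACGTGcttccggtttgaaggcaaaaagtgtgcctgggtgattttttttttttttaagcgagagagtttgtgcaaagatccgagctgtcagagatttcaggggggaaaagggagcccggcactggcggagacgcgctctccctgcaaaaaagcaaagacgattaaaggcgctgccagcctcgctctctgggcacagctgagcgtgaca
Tbx18 (chr9:87731211-87731510, minus strand): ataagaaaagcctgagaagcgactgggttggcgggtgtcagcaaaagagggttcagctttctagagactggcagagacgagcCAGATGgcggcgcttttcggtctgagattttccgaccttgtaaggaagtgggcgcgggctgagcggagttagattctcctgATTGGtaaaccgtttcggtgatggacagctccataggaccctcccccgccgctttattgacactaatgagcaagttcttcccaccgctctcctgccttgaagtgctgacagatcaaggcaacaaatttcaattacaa
Twist1 (chr12:33957421-33957720, plus strand): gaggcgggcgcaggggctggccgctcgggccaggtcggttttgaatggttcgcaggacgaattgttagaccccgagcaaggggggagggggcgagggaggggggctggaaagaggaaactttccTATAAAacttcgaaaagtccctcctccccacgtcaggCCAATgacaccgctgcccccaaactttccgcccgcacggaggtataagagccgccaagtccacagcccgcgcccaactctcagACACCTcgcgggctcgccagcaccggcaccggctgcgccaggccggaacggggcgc

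The En1 promoter held 2 matches to CACGTG, which 7.15% of all 32851 promoters of this length carry, and 2 to CCAAT, which 37.4% carry. The Tbx18 promoter held 1 match to CATCTG (17.2% of promoters) and 1 to CCAAT. The Twist1 promoter held 1 match each to AGGTGT (13.7%), TATAAA (13.6%) and CCAAT. The homeodomain core TAATTA, present in 5.29% of promoters, was in none of these 3 windows and was in that of Prrx1. The number of CpG dinucleotides was 23 in the En1 window, 15 in that of Tbx18 and 27 in that of Twist1, more than in 78.5%, 65.4% and 84.5% of all promoters.

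The first comparison that the choice of genes did not use was serum, which asked whether the positional factors respond within 30 min in starved fibroblasts. In neither genotype did a member meet the call. None of the 7 members that passed the filter was called in WT iDFs (edgeR), where 2.04% of all genes were, and none in dKO iDFs, where 3.33% were. DESeq2 also called 0 in each genotype. Alx4 passed the filter through its WT reads and held 1 to 3 reads in each dKO library, so that a serum response in dKO iDFs or a difference in response was not detectable for it, and those counts rest on the other 6 genes. At an unadjusted p under 0.05 by edgeR, 2 were lower in WT (Alx4 and Twist1) and 2 in dKO (Tbx18 and Twist1). Of all 14382 tested genes, 1261 were lower at that threshold in WT and 1667 in dKO. The lowest adjusted p was that of Tbx18 in dKO iDFs, which went from 92.2 and 86.0 CPM to 65.8 and 47.2 CPM (log2 fold change -0.66 ± 0.15, adjusted p = 0.0432 by edgeR). This missed the fold threshold, and without dKO replicate 1 at 30 min the value was -0.92 and met the call. In WT iDFs Tbx18 went from 40.0 and 37.8 CPM to 33.9 and 30.7 CPM (-0.27 ± 0.16, adjusted p = 0.426 by edgeR). The difference between these responses was -0.39 ± 0.22 on the log2 scale (interaction, adjusted p = 1.00 by edgeR), so that it was not shown to differ between genotypes.

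Twist1 went from 103 and 103 CPM to 94.5 and 97.7 CPM in WT (-0.10 ± 0.04, adjusted p = 0.212) and from 116 and 119 CPM to 105 and 107 CPM in dKO (-0.14 ± 0.04, adjusted p = 0.0631; both by edgeR). En1 was higher after serum by 0.24 ± 0.15 in WT and 0.31 ± 0.14 in dKO, with adjusted p of 0.428 and 0.229 (edgeR). Tbx5 averaged 23.8 CPM in dKO iDFs at both times (log2 fold change 0.00 ± 0.20, adjusted p = 1.00 by edgeR), and Prrx1 averaged 512 CPM at both. In the interaction 0 of the 7 members, Alx4 with its few dKO reads included, were called, by either edgeR or DESeq2, and 0 had an unadjusted p under 0.05, where 0.0139% of all genes were called.

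**Figure D4:**
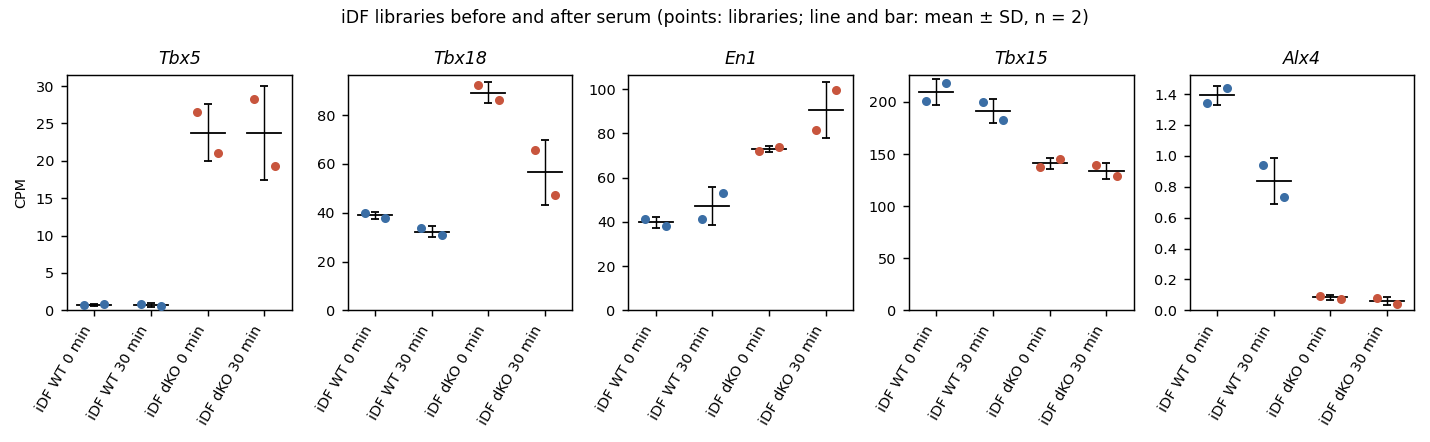
CPM of 5 genes in the iDF libraries by genotype and serum time (points, libraries; line and bar, mean ± SD, n = 2). WT and dKO libraries are apart at both times for all 5 genes, and Tbx18 in dKO iDFs stands at 86.0 and 92.2 CPM before serum and at 47.2 and 65.8 CPM after it.

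CD8+ T cells, which are not mesenchymal, gave the second comparison that the choice did not use. Tbx4 and Tbx5 held 0 reads in all 8 libraries, which allows up to 3 reads or 0.105 to 0.171 CPM in each. The 2 members that passed the filter, Prrx1 and Tbx15, were not called by edgeR or DESeq2, neither had an unadjusted p under 0.05, and 0.495% of all genes were called. Prrx1 had a mean of 4.72 ± 5.75 CPM in WT and 0.992 ± 1.05 CPM in dKO (SD, n = 4; log2 fold change -3.22 ± 1.83, adjusted p = 0.610 by edgeR). Tbx15 had 1.24 ± 1.73 and 1.10 ± 1.44 CPM (log2 fold change 1.2 ± 1.27, adjusted p = 0.807 by edgeR). The sign of this fitted value was opposite to that of the group means, and without the sex term it was -0.18. One WT library, replicate 1, carried all 66 reads of En1, all 21 of Twist1 and 233 of the 406 reads of Prrx1 found in WT. The same library had a melanocyte marker sum of 196 TPM against 8.64 to 16 in the other WT libraries. Its fibroblast marker sum was the highest of the 4 WT libraries, at 1026 TPM against 515 to 974. Among dKO libraries, replicates 3 and 4 had higher fibroblast sums, at 1428 and 1187 TPM. No dKO library held more than 34 reads of Prrx1 or 1 of En1. The part of other cells in these values was not tested.

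Genes of the same pathways were taken from 5 lists with 151 genes in all, chosen beside the members and holding none of them: T-box relatives, homeodomain relatives, bHLH relatives and partners, other mesenchymal transcription factors, and limb field and limb bud signals. The lists too were chosen with earlier results of these data known. Their shares called and adjusted p-values are therefore descriptions and no independent test. In iDFs at 0 min 90 of the 151 were tested, and 15 rose and 8 fell in dKO, or 25.6% against 9.13% of all tested genes. Their median log2 fold change was 0.18, against 0.00 over all genes. At 30 min 17 rose and 10 fell (30% against 9.05%, median 0.16). Of the 23 genes called at 0 min, 22 were called the same way at 30 min, or 22 of the 27 called there. In CAFs 115 were tested, and 3 rose and 10 fell (11.3% against 5.48%), with a median log2 fold change of -0.06. DESeq2 called 21 there, 4 higher and 17 lower. In bulk tumours 118 were tested and 0 were called by edgeR, and DESeq2 called 2, of which Fgf2 was 1. By edgeR 15 had an unadjusted p under 0.05 (2 higher, 13 lower), against 642 higher and 718 lower of all 18097 genes.

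Limb bud signals moved furthest in iDFs at 0 min. Bmp4, a bone morphogenetic protein of limb bud and dermis, rose in dKO from 0.356 ± 0.0252 to 38.0 ± 3.20 CPM (SD, n = 2; log2 fold change 6.72 ± 0.24, adjusted p = 6.2e-07 by edgeR). Wnt5a, which drives limb outgrowth, rose from 63.4 ± 2.03 to 251 ± 1.48 CPM. The Wnt-enhancing R-spondins rose too, Rspo2 from 16.4 ± 0.613 to 65.4 ± 7.54 CPM and Rspo3 from 13.3 ± 1.55 to 24.1 ± 1.38 CPM. Grem1, a secreted BMP antagonist, rose from 3.76 ± 0.0658 to 18.8 ± 0.241 CPM. Hhip, an inhibitor of hedgehog ligands, fell from 0.894 ± 0.0496 to 0.371 ± 0.0158 CPM, and the call was lost when any 1 of the 4 libraries was left out. The call of Rspo3 was lost without WT replicate 1.

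Among the transcription factors related to the members, 5 homeodomain genes rose and 3 fell in dKO iDFs at 0 min. Shox2, a proximal limb factor, rose from 80.2 ± 1.83 to 199 ± 26.3 CPM. Pax3, a factor of somite and neural crest, fell from 5.67 ± 0.10 to 0.630 ± 0.126 CPM. Emx2, a factor of the scapula and urogenital system, fell from 31.7 ± 2.58 to 13.9 ± 0.746 CPM. Of the 2 T-box relatives tested, Tbx1 fell from 1.72 ± 0.103 to 0.0519 ± 0.0284 CPM and Tbx3 was not called. Hand2, a bHLH factor of posterior limb and heart mesenchyme, was at 0.0374 and 0.0422 CPM in WT, or 1 read in each library, and at 3.45 and 2.80 CPM in dKO. Foxc2, a forkhead factor of mesenchyme and vessels, rose from 0.817 ± 0.0990 to 10.2 ± 0.410 CPM, and Sox9 and Hic1 fell to 8.88 ± 0.550 and 42.1 ± 3.78 CPM from 19.3 ± 1.94 and 83.8 ± 6.74 CPM (SD, n = 2).

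**Figure D5:**
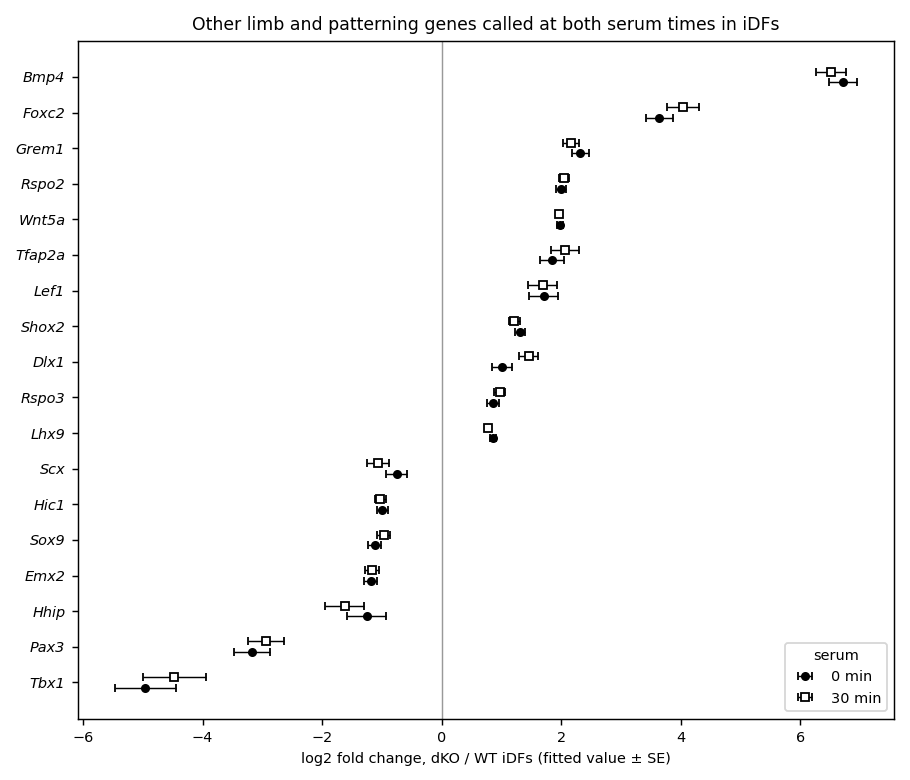
Log2 fold change of dKO over WT iDFs with its standard error for 18 of the 22 listed genes called at both serum times (filled circle, 0 min; open square, 30 min), with genes that had a library at 0 reads, such as Hand2 and Meox1, not drawn. Bmp4 is highest at 6.72 and 6.52, and Tbx1 lowest at -4.96 and -4.47.

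In CAFs the called genes of these lists were mostly lower in dKO, as were those among all tested genes (229 higher and 636 lower). Grem1 fell from 19.9 ± 5.64 to 3.04 ± 0.357 CPM (SD, n = 4; log2 fold change -2.67 ± 0.15, adjusted p = 8.6e-05 by edgeR), and Nog, a further BMP antagonist, fell from 3.95 ± 1.49 to 1.09 ± 0.250 CPM. Tbx1 fell from 2.66 ± 0.872 to 0.818 ± 0.208 CPM, and Alx1, a relative of Alx4, fell from 2.97 ± 1.17 to 1.12 ± 0.954 CPM with overlapping ranges. Osr2, an odd-skipped factor of limb and palate mesenchyme, rose from 28.9 ± 2.35 to 53.5 ± 4.63 CPM, and Ebf2, which marks fibroblast and adipose precursors, rose from 89.0 ± 19.6 to 223 ± 76.5 CPM. Tfap2a, a factor of neural crest and epidermis, fell from 26.5 ± 8.82 to 10.6 ± 7.11 CPM. Leaving out 1 library ended the call of Alx1 for 6 of 8 libraries, of Ebf2 for 5, and of Mkx and Nr2f2 for 7 each. Grem1, Nog, Tbx1, Osr2, Bmp2 and Tfap2a were called in all 8 such fits. The lower keratinocyte, melanocyte and Schwann cell marker sums of these dKO libraries, given beside Alx4, apply to these genes too, and their part was not tested.

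Serum moved few of the listed genes. In WT iDFs 5 rose and 1 fell of 90 (6.67% against 2.04% of all genes), and in dKO iDFs 4 rose and 1 fell (5.56% against 3.33%). Irx3, a homeodomain factor of the limb field, rose from 2.95 ± 0.108 to 13.6 ± 2.56 CPM in WT and from 2.38 ± 0.010 to 8.46 ± 0.484 CPM in dKO (SD, n = 2). Irx3, the homeodomain gene Dlx2 and Dusp6, a feedback inhibitor of FGF signalling, rose in both genotypes and Osr1 fell in both. The calls of Dlx2, Dusp6, Foxc1, Spry1 and Osr1 in WT and of Dlx2, Dusp6 and Spry4 in dKO were lost when 1 of the libraries was left out, and those of Irx3 were not. In the interaction 0 of the 90 were called by edgeR or DESeq2. By edgeR 5 were lower at an unadjusted p under 0.05, as were 186 of all 14382 genes.

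The genes whose levels over all 36 libraries were most like each member were found by Pearson correlation of log2(TPM + 0.1) over 15207 protein-coding genes, as a description in which the points share cell type, library kind and depth. Prrx1 was most like Cdh11, a mesenchymal cadherin (r = 0.994), as was Tbx18 (r = 0.985), and Twist1 was most like Mrc2 and Gli2 (r = 0.991 each). En1 was most like Unc5c (r = 0.987) and Fat4 (r = 0.983), Tbx15 was close to Foxk1 (r = 0.971), and Alx4 was most like D630003M21Rik (r = 0.969) and Tril (r = 0.966). Tbx5 was most like Hoxa13, a Hox gene of the distal limb (r = 0.938), and Gdf7 (r = 0.932). Tbx4 was most like Csmd1 (r = 0.938) and Pex5l (r = 0.931). Pitx1 was most like Lce3f (r = 0.907) and Lce3a (r = 0.904), late cornified envelope genes of the epidermis. Among the members themselves the closest pair was Tbx18 and Twist1 (r = 0.975), and Tbx4 was closest to Alx4 (r = 0.815).

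Of the protein-coding genes next to the members, 18 were in the files and 13 of them passed the filter in CAFs and 12 in iDFs. In CAFs 1 was called, Cep162 beside Tbx18, where 5.48% of all genes were. In iDFs at 0 min 1 was called, Hdac9 beside Twist1, where 9.13% of all genes were. Hdac9 went from 0.400 to 1.21 CPM (log2 fold change 1.59 ± 0.35, adjusted p = 0.00716 by edgeR). At 30 min none was called, where 9.05% of all genes were, with Hdac9 at 0.600 and 0.736 CPM. In bulk tumours none of the 12 tested was called, where 0.0442% of all genes were.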

How the data were processed

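RNA was measured in 36 libraries (12 bulk tumours, 8 CAF, 8 CD8+ T cell and 8 iDF libraries) as 75-base single-end reads. The authors mapped reads with Salmon 1.2.1 to Gencode transcripts of GRCm38.p6 and deposited estimated counts, TPM and effective lengths per transcript for each library. Per gene, the deposited estimated counts were added up with the annotation of Gencode release 21, matched by identifier without version (139791 of 140992 transcripts; 0.25 to 0.52% of counts per library fell outside genes), and rounded to whole numbers for the tests. The deposited TPM values were summed per gene for levels. Promoters are from RefSeq.

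Each experiment was fitted with edgeR 4.0.16 (quasi-likelihood test, TMM scaling, filterByExpr at 10 reads, total 15) in R 4.3.3, with sex as a term in tumours, CAFs and T cells and batch as a term in tumours. iDFs were fitted over all 4 groups. DESeq2 1.42.0, RLE factors, no filter, an effective length offset, other terms and each library left out were alternatives. The members and lists were chosen with earlier results of these data known. The genes named are the 9 members, the targeted genes, the nearest protein-coding neighbours, the 2 most alike genes per member, and at most 6 called genes per list and comparison. Some alleles and genes that these rules name are not reported here. Scripts were tested on simulated data. Depth was 17526618 to 85432397 reads per library.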

Additional observations from a re-analysis of the deposited data

Results flagged for a closer look

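Among 45 combinations of a member and a group of 4 to 6 libraries, 6 had 1 library far from the others. The limit used picks about 1 in 20 groups of normally spread values by chance, a rate that was not tested for values near 0, and 5 of the 6 were T cell groups in which the other libraries held few or 0 reads. Tbx18 stood at 18.9 CPM in WT bulk replicate 1 against 10.7 to 13.5 CPM in the other 5. In CD8+ T cells, WT replicate 1 held 3.38 CPM of En1 and 1.08 CPM of Twist1 where the other 3 WT libraries held 0. Among dKO T cell libraries, replicate 4 held 3.24 CPM of Tbx15 against 0.132 to 0.569 CPM, replicate 3 held 1.38 CPM of Tbx18 against 0 to 0.0579 CPM, and replicate 1 held 0.219 CPM of Twist1 against 0.

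Grem1 and Tfap2a, 2 of the listed genes, moved in opposite directions in the 2 kinds of fibroblasts, with no overlap between genotypes in either. The log2 fold change of Grem1 was -2.67 in CAFs, 2.32 in iDFs at 0 min and 2.17 at 30 min. That of Tfap2a was -1.52 in CAFs, 1.85 in iDFs at 0 min and 2.06 at 30 min. The difference between CAFs and iDFs was not tested.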

How the results depend on the processing

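Counts of members in the genotype comparisons of tumours and fibroblasts describe values that their choice used, and no stability is read from them. With DESeq2, called genes numbered 191 in bulk tumours, 451 in CD8+ T cells and 7 in the interaction, against 8, 74 and 2, and 1 member was called in bulk tumours. Without the low-count filter they numbered 25, 844 and 7, 0 members were called in CAFs and 1 in T cells. Without the sex term they numbered 21 in bulk tumours and 386 in CAFs, against 865, with 0 members called in CAFs. The cause was not tested. Leaving out 1 library gave 4 (without WT replicate 4) to 13 (without WT replicate 2) called genes in bulk tumours, 504 (without WT replicate 2) to 892 in CAFs, 23 (without dKO replicate 1) to 57 in T cells, 124 (without WT 0 min replicate 2) to 326 for serum in WT iDFs, 225 (without dKO 0 min replicate 2) to 561 in dKO iDFs and 2 to 5 in the interaction, and 0 to 1 members called in CAFs and for serum in dKO iDFs. Where this left an arm with 1 iDF library, that library was assumed to vary like the other groups.

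The replicate numbers of iDFs mark no stated batch, and deviations of same-numbered libraries correlated between 0.003 and 0.117 over 14382 genes. With the replicate block, called genes numbered 1377 at 0 min, 1369 at 30 min, 383 and 555 for serum in WT and dKO, and 4 in the interaction.

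Serum fold changes near 0 changed sign. That of Tbx15 in T cells, 1.2 ± 1.27 in the main fit, changed sign too and was -0.18 without the sex term. Prrx1 in WT serum was 0.0047 with DESeq2 and with RLE factors, 0.0259 with the length offset, 0.0006 with only the compared groups, and -0.056 to 0.045 with 1 library left out. Tbx5 was -0.55 to 0.25 there. In dKO serum Tbx5 was -0.012 without the filter, -0.058 with the length offset, -0.0094 with the replicate block, -0.0016 with only the compared groups and -0.30 to 0.25 with 1 library left out, and Prrx1 was -0.011 without the filter, -0.0022 with only the compared groups and -0.035 to 0.035. In the interaction Prrx1 was -0.0073 without the filter, and leaving out 1 library gave -0.046 to 0.055 for Prrx1, -0.25 to 0.55 for Tbx5, -0.0057 to 0.12 for Tbx15, -0.10 to 0.27 for En1 and -0.19 to 0.62 for Alx4. Depth leaves Pitx1 and Tbx4 on few reads in CAFs and iDFs, Tbx5 in CAFs and WT iDFs, and Alx4 in iDFs only.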
